A study of Mus musculus with 8 samples.

Results

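A small group of non-cycling CD8 T cells in B16-OVA melanoma carried transcripts of Gzmc, Gzmd, Gzme, Gzmf and Gzmg, granzymes encoded in a cluster on mouse chromosome 14. They were chosen by counts of unique molecular identifiers (UMIs, one per captured transcript) in each cell. Of 15700 barcodes, 12828 had between 2000 and 40000 UMIs, between 500 and 6000 genes detected, a ribosomal protein gene (Rps, Rpl) share of 5 to 60% and a mitochondrial share under 10%. Among them 4673 passed a CD8 gate, in which either Cd8a or Cd8b1 and any of Cd3d, Cd3e and Cd3g had to be detected while Cd4, Lyz2, Cd79a and Ncr1 had to be at 0. Of these, 4056 had no UMI of the proliferation gene Mki67, and 112 of the 4056 (2.76%) held 3 or more UMIs of the 5 granzymes together. These 112 are called granzyme C-G cells here, and the remaining 3944 are the other CD8 cells.

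The tumors were grown in C57BL/6 mice. The mice received adoptive cell transfer (ACT) of OT1 cells, CD8 T cells whose receptor recognises the ovalbumin that the tumor expresses, and CD45+ tumor-infiltrating lymphocytes (TILs) were sorted with an enrichment for CD8 and sequenced with a droplet 5′ assay. The 8 libraries, 1 per condition and day, were non-treated mice at day 5, untransduced OT1 cells at days 5 and 12, PD1d/IL-2v at day 12, PD1d/IL-33 at day 12, and PD1d/IL-2v/IL-33 at days 5, 12 and 26 after transfer. PD1d is a secreted decoy made of the outer part of PD-1 and an antibody Fc, IL-2v is an interleukin-2 variant that does not engage IL-2Rα, and IL-33 is an alarmin cytokine. PD1d/IL-2v/IL-33 mice were given PD1d/IL-2v and PD1d/IL-33 OT1 cells in equal numbers, so no single cell was engineered with all of them. The tumors of several mice were pooled in each library, no condition was repeated on a day, and the files do not tell OT1 cells from CD8 T cells of the host. By their run identifiers, the PD1d/IL-2v and PD1d/IL-33 libraries of day 12 shared a run, as did untransduced and PD1d/IL-2v/IL-33 of day 12, and non-treated and PD1d/IL-2v/IL-33 of day 26. A library held between 1387032 and 24917112 UMIs.

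Granzymes are serine proteases that killer lymphocytes store in granules and release onto a target together with perforin, which lets them into the target cell. In the mouse, granzyme A and granzyme B are the widely used members, whereas the genes of granzymes C to G lie next to Gzmb and are known from strongly activated CD8 T cells and natural killer (NK) cells. CD8 T cells in tumors range from naive or memory-like cells that use Tcf7, through effector cells rich in granzymes, to exhausted cells that keep PD-1 and the transcription factor Tox.

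The 5 genes lie within 124 kb, from Gzme to Gzmc, with Gzmn between Gzmg and Gzmf. Their upstream regions are close copies of each other and are shown here because these 5 genes define the cells. Stretches of 100 bases upstream of each start site follow, 5′ to 3′ on the minus strand of chromosome 14, from RefSeq on GRCm38.p6, with capitals marking the Runx letters TGTGGT and the cyclic AMP response element letters TGACGTCA. The positions are Gzmc chr14:56234672-56234771, Gzmd chr14:56132612-56132711, Gzme chr14:56120645-56120744, Gzmf chr14:56211447-56211546, Gzmg chr14:56159614-56159713. The Gzmc stretch lies inside the annotated span of that gene (chr14:56231397-56241647), upstream of a start site within it.
Gzmc: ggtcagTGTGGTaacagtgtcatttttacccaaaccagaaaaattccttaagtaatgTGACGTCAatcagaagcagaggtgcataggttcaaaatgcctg
Gzmd: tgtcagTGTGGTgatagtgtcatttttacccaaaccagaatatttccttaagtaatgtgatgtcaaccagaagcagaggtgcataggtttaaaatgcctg
Gzme: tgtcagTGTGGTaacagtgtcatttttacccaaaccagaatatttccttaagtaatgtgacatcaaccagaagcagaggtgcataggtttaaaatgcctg
Gzmf: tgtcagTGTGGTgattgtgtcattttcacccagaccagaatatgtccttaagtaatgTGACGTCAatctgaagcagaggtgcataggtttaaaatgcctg
Gzmg: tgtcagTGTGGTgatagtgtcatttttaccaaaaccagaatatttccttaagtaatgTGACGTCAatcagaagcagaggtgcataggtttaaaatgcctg
Over the full windows of 250 bases before and 50 bases after the start, aligned pairs of the 5 genes were identical at 86.1 to 94.0% of bases. The TGTGGT letters occurred in all 5 windows, on either strand, against 16.8% of 32851 mouse promoter windows of the same length. They also occurred in the window of Gzmb, which is outside the 5. The letters GGAAGT, of ETS factors, occurred in all 5 windows too, against 23.8% of all windows. The TGACGTCA letters occurred in Gzmc, Gzmf and Gzmg and not in Gzmd or Gzme, against 1.79% of all windows. The transcripts of the 5 genes were identical at 71.7 to 94.2% of aligned bases, with Gzmd and Gzme the closest pair. Of all stretches of 91 bases in a transcript, 1.95% of those of Gzmd, 1.34% of those of Gzmg, 0.708% of those of Gzme and none of those of Gzmc or Gzmf were also found in another granzyme. How far reads were divided between Gzmd, Gzme and Gzmg was not tested, and their separate values are less certain than those of Gzmc and Gzmf.

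Granzyme C-G cells were most frequent in PD1d/IL-2v/IL-33 at day 12. There, 81 of 697 CD8 gate cells belonged to them, or 11.6% with an exact 95% binomial (Clopper-Pearson) interval of 9.34 to 14.2%. PD1d/IL-2v at day 12 had 14 of 469 cells (2.99%, 1.64 to 4.96%), PD1d/IL-2v/IL-33 at day 5 had 9 of 485 (1.86%, 0.852 to 3.49%), and untransduced cells at day 5 had 6 of 408 (1.47%, 0.542 to 3.17%). A single cell was found in each of PD1d/IL-33 at day 12, among 355 (0.282%, 0.00713 to 1.56%), and PD1d/IL-2v/IL-33 at day 26, among 2152 (0.0465%, 0.00118 to 0.259%). None was found among 70 non-treated cells, which allows a share of up to 5.13%, or among 37 untransduced cells of day 12, which allows up to 9.49%. The interval of PD1d/IL-2v/IL-33 at day 12 overlapped that of 1 other library, the untransduced library of day 12, whose 37 cells leave room for up to 9.49% by the same method. Within the pair of libraries of day 12 on one run, the values were 11.6% against 0 of 37, and within the other pair 2.99% against 0.282%. These intervals cover counting error only, no test between conditions was possible with 1 library each, and the difference between libraries is not known to exceed that between mice.

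The number of UMIs per cell went with membership. Granzyme C-G cells of PD1d/IL-2v/IL-33 at day 12 had a median of 14897 UMIs against 6701 in the other CD8 cells, and the medians were 11126 against 7433 in PD1d/IL-2v, 18150 against 6602.5 in PD1d/IL-2v/IL-33 at day 5 and 12344 against 6184 in untransduced cells at day 5. In the first of these libraries the share of non-cycling gate cells that were members was 3.52% at 2000 to 5000 UMIs, 6.34% at 5000 to 10000, 29.2% at 10000 to 20000 and 81.8% at 20000 to 40000. After each cell was thinned to 2000 UMIs before the rule was applied, 9.70% of the gate cells of PD1d/IL-2v/IL-33 at day 12 still qualified, against 3.12% in PD1d/IL-2v, 2.12% in PD1d/IL-2v/IL-33 at day 5, 2.01% in untransduced cells at day 5, 0.299% in PD1d/IL-33 and 0.0921% at day 26. The order of these 6 libraries was the same as without thinning.

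Free RNA can place granzyme UMIs in cells that do not use the genes. Among 1350 cells with Lyz2 or Cd79a, markers of myeloid and B cells, and without Cd3, Ncr1 or Nkg7, 1 cell (0.0741%, 0.00188 to 0.412%) held 3 or more granzyme UMIs, at a median depth of 8382 UMIs. In PD1d/IL-2v/IL-33 at day 12 none of 131 such cells did, which allows up to 2.78%. Before cells with Ncr1 or Nkg7 were left out, 26 of 1621 (1.60%) did, 23 of them with Ncr1, and 8 of 156 (5.13%, 2.24 to 9.85%) in PD1d/IL-2v/IL-33 at day 12, 6 of them with Ncr1. The shares in PD1d/IL-33 and at day 26, each from 1 cell, had intervals that overlapped this background, and the day 26 share was below it. Set against cells without Ncr1 and Nkg7 of their own library, the interval of untransduced cells at day 5 (none of 327, upper bound 1.12%) overlapped too. So did that of PD1d/IL-2v/IL-33 at day 5 (1 of 296, upper bound 1.87%). Those of PD1d/IL-2v (none of 246, upper bound 1.49%) and PD1d/IL-2v/IL-33 at day 12 (upper bound 2.78%) did not. Before cells with Ncr1 or Nkg7 were left out, both of the latter overlapped as well. The background was then 8 of 336 (2.38%, 1.03 to 4.64%) in PD1d/IL-2v and 2.24 to 9.85% in PD1d/IL-2v/IL-33 at day 12. Free RNA of killer cells could also bring Nkg7, so leaving out cells with Nkg7 can lower the background. Granzyme C-G cells held 42.7% of all granzyme C-G UMIs of the PD1d/IL-2v/IL-33 library of day 12, NK cells held 30.4%, and 18.9% and 50.1% were the values in PD1d/IL-2v. Of barcode sequences, 143 occurred in more than 1 library, 17 at most between 2 libraries, and 3 of the 143 belonged to granzyme C-G cells.

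**Figure D1:**
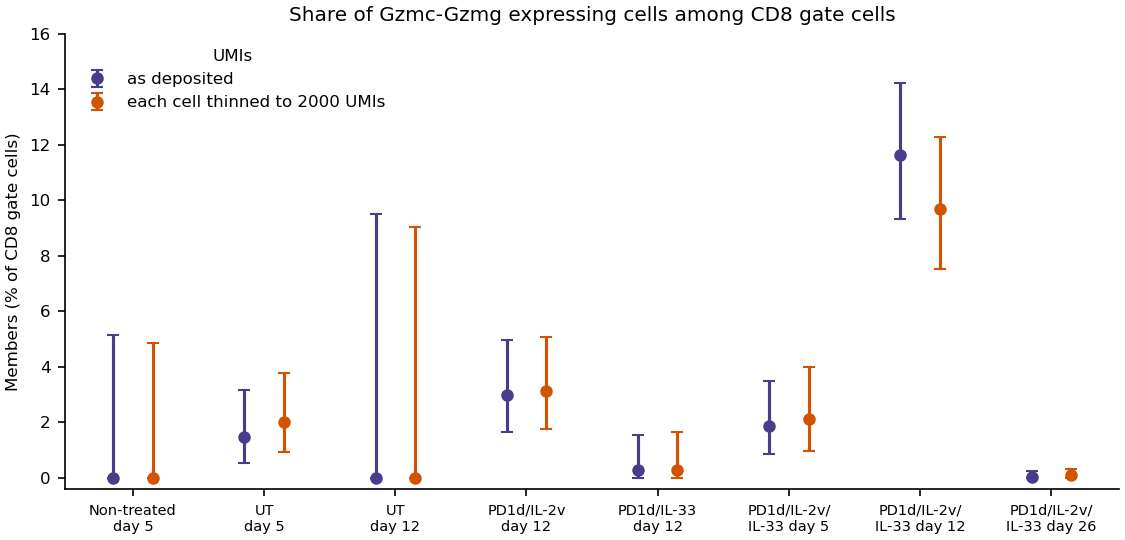
Share of CD8 gate cells that were granzyme C-G cells in each of the 8 libraries, in percent, with exact 95% binomial intervals as bars. PD1d/IL-2v/IL-33 at day 12 stands at 11.6%, and the 7 other libraries lie at or below 2.99%.

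The content of granzyme C-G UMIs differed widely between these cells. It ran from 3, the threshold, to 3557 with a median of 43 over the 112 cells, and as it defines them it is given as a description. Just inside the threshold, 14 cells held 3 or 4 UMIs, and just outside it 137 other CD8 cells held 1 or 2, 69 of them in PD1d/IL-2v/IL-33 at day 12, while 3807 held none. The median was 41 in PD1d/IL-2v/IL-33 at day 12, where 28 of 81 cells held 100 or more, 44 in PD1d/IL-2v, 122 in PD1d/IL-2v/IL-33 at day 5 and 44.5 in untransduced cells. The cell with the most, in PD1d/IL-2v/IL-33 at day 12, had 31082 UMIs in all, of which 11.4% came from the 5 granzymes, with 1966 of Gzmf, 720 of Gzmd, 354 of Gzme, 351 of Gzmc and 166 of Gzmg. That cell held 26.6% of the granzyme C-G UMIs of its library's members, and 1 cell of PD1d/IL-2v held 43.6% of those of its library.

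Gzmc was the most widespread of the 5, with a UMI in 106 of 112 cells, followed by Gzmf in 71, Gzmd in 56, Gzme in 51 and Gzmg in 29. Gzmc alone was the most abundant of the 5 in 59 cells and Gzmf in 47, and 3 cells had a tie for the most abundant. The 5 were not always found together, since 30 cells held only 1 of them and 21 held all 5, 20 of the latter in PD1d/IL-2v/IL-33 at day 12. Of the summed granzyme C-G UMIs, Gzmc made 31.7% and Gzmf 44.5% in PD1d/IL-2v/IL-33 at day 12, against 47.5% and 18.0% in PD1d/IL-2v (where Gzmd made 19.2%), 36.3% and 55.1% in PD1d/IL-2v/IL-33 at day 5 and 62.7% and 29.6% in untransduced cells at day 5. When each cell counted equally, Gzmc led in both libraries of day 12, with a mean share of 53.1% against 35.2% for Gzmf in PD1d/IL-2v/IL-33 and 73.9% against 14.9% in PD1d/IL-2v. Cells rich in granzyme UMIs weigh more in the sums than in these means. Gzmg was seen in 25 of 81 cells of PD1d/IL-2v/IL-33 and in 2 of 14 cells of PD1d/IL-2v, with 717 and 4 UMIs.

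**Figure D2:**
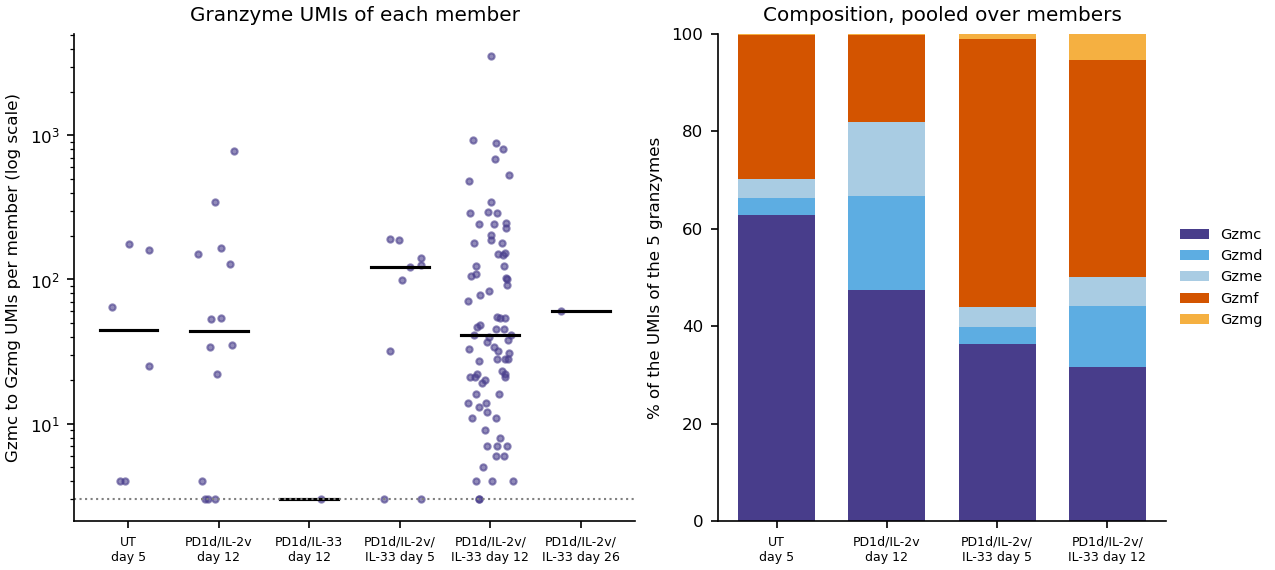
Summed granzyme C-G UMIs of each cell by library (points, log scale, with the median as a line and the threshold dotted) and, for the 4 libraries with more than 1 member, the percent of these UMIs from each of the 5 genes (stacked bars). Gzmc and Gzmf together make most of the UMIs, with Gzmf ahead in PD1d/IL-2v/IL-33 at days 12 and 5 (44.5 and 55.1%) and Gzmc ahead in PD1d/IL-2v (47.5%) and untransduced cells (62.7%).

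The T cell identity of these cells was checked on marker genes, in CPM (counts scaled to a total of 1000000 UMIs) summed over the cells of a library. The 5 CD8 T cell markers, of which the gate required some, summed to 3763 CPM against 4028 in the other CD8 cells of PD1d/IL-2v/IL-33 at day 12, and to 5219 against 5051 in PD1d/IL-2v. The 8 NK markers summed to 101 against 122 CPM and to 60.4 against 246 CPM in the same libraries. In PD1d/IL-2v/IL-33 at day 12, the NK receptor genes Klra4, Klra7 and Klra8 were at 0 UMIs in the 81 cells, as was Ncr1 by the rule. The most abundant NK marker there was Klrb1c, which was above the other CD8 cells (43.9 against 17.8 CPM), whereas Eomes was below them (26.5 against 60.4 CPM). Of the 10 monocyte or macrophage markers, 4 were detected there, summing to 219 CPM against 178 in the other CD8 cells, and the sums were 297 against 156 in PD1d/IL-2v, 242 against 138 in PD1d/IL-2v/IL-33 at day 5 and 209 against 180 in untransduced cells. Most of each sum was Cst3, at 204, 269, 221 and 195 CPM in the granzyme C-G cells of these libraries, and the defining markers Lyz2 (by the rule), C1qa, C1qb and Csf1r were at 0 in all 4. The part of such RNA in the results was not tested. In the same 81 cells the melanoma markers were at 0 and the B cell markers at 1 UMI. The part of doublets was not tested reliably, since the doublet caller marked 35 of 12828 cells (0.273%). When the 770 cells with the highest doublet scores were left out, 4 granzyme C-G cells went with them and the share in PD1d/IL-2v/IL-33 at day 12 was 11.8%.

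Of the 3 marker genes outside the rule that gave these cells their label, Ifitm2 and Fcer1g were higher than in the other CD8 cells and Ly6c2 was not. Ly6c2, a surface antigen of effector and memory CD8 T cells, stood at 1641 CPM in granzyme C-G cells against 1683 in the other cells of PD1d/IL-2v/IL-33 at day 12, 720 against 1167 in PD1d/IL-2v, 371 against 776 in PD1d/IL-2v/IL-33 at day 5 and 377 against 794 in untransduced cells. It was below the other CD8 cells in all 4 libraries, by little in the first, and it was not called with 2 libraries (log2 fold change -0.30, adjusted p = 0.726 by edgeR's quasi-likelihood test, described next) and called lower with 4 (-0.66, edgeR adjusted p = 0.00121). Against CD8 cells that held both Pdcd1 and Tox, compared further on, Ly6c2 was higher with 2 libraries (0.91 ± 0.21, edgeR adjusted p = 0.00737) and not called with 4 (0.47, edgeR adjusted p = 0.301).

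To ask what the granzyme C-G cells shared beyond the granzymes, UMIs were summed per library over these cells and over the other CD8 cells and compared within libraries by edgeR's quasi-likelihood test with Benjamini-Hochberg adjustment, with the library as a block. The test used the 2 libraries with at least 10 members, PD1d/IL-2v and PD1d/IL-2v/IL-33 of day 12 (95 against 899 cells), and was repeated on 4 libraries by adding the day 5 libraries with 6 and 9 members (110 against 1572 cells). Of 8828 genes tested, 494 (5.6%) passed an adjusted p of 0.05, 232 higher (2.63%) and 262 lower (2.97%) in granzyme C-G cells. With 4 libraries 674 of 9039 (7.46%) passed, 247 higher (2.73%) and 427 lower (4.72%), and 426 of the 494 were called the same way. The calls rest on few libraries: without the library block 1 gene passed, DESeq2 gave 75, and comparison cells limited to the members' range of UMIs gave 315. The gene lists below hold 64 genes called with 2 libraries, of which 60 were called with 4 libraries (all but Klrb1c, Tigit, Nr4a2 and Csf2), 53 with cells of like UMI range and 23 with DESeq2.

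Among 17 cytotoxic genes, 4 were higher and 2 lower. Gzmb was at 2406 CPM in granzyme C-G cells against 810 in the other CD8 cells of PD1d/IL-2v/IL-33 at day 12, 3278 against 524 in PD1d/IL-2v, 2895 against 1818 in PD1d/IL-2v/IL-33 at day 5 and 2358 against 460 in untransduced cells. It was higher in all 4 libraries, with a log2 fold change of 2.15 ± 0.30 (SE, n = 2 libraries, edgeR adjusted p = 3.5e-10). Prf1, which encodes perforin, was at 169 against 71.4 CPM in the first of these libraries and 975 against 84.5, 392 against 145 and 363 against 108 in the others. Its log2 fold change was 2.43 ± 0.24. The ± values rest on a variance moderated over genes. They are not the spread of a gene between the 2 libraries, which was wider for Prf1. Serpinb9b, a serpin related to the granzyme B inhibitor Serpinb9 (2.29 ± 0.36), and Ctsd, a lysosomal protease (1.01 ± 0.24), were also higher. Gzmk, the granzyme of memory-like CD8 T cells, was lower (log2 fold change -1.65 ± 0.28), with 12.4 against 143 CPM in PD1d/IL-2v/IL-33 at day 12 but 125 against 109 in PD1d/IL-2v. Gzmm was also lower (-3.16 ± 0.46). DESeq2 did not call Prf1 (adjusted p = 0.420), Gzmk or Gzmm (adjusted p = 0.888). Gzma did not pass the test (0.30 ± 0.28), and it was at 1858 against 1117 CPM in the former library and 734 against 893 in the latter.

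Of 9 genes of the Ifitm family, Plac8 and the Ly6 family, 4 were higher and 1 lower. The Ifitm genes encode small membrane proteins that block the entry of viruses. Ifitm2 was at 1599 against 255 CPM in PD1d/IL-2v/IL-33 at day 12, 423 against 31.6 in PD1d/IL-2v, 528 against 62.8 in PD1d/IL-2v/IL-33 at day 5 and 126 against 70.0 in untransduced cells. Its log2 fold change was 3.18 ± 0.28 (n = 2 libraries, edgeR adjusted p = 3.1e-27), and after thinning to 2000 UMIs 77.8, 42.9, 66.7 and 16.7% of granzyme C-G cells held a UMI, against 11.1, 3.04, 6.53 and 4.67% of the other cells. Ifitm1 (3.32 ± 0.29), Ifitm3 (2.64 ± 0.26) and Plac8 (0.78 ± 0.26) were higher as well, and Ifitm10 was lower (-1.61 ± 0.39). Ifitm1 was at 1.42 under the stricter CD8 gate, and Plac8 passed in 3 of 8 settings, not with cells of like UMI range (edgeR adjusted p = 0.168) or with DESeq2 (adjusted p = 0.251). In PD1d/IL-2v, 87.3% of the Ifitm1 UMIs of the 14 cells came from 1 cell, against 13.1% for the highest of 81 cells in PD1d/IL-2v/IL-33. By contrast, 5 of 10 interferon-stimulated genes were lower and none higher, among them Ifi27l2a (-1.97 ± 0.26) and Isg15 (-1.03 ± 0.26).

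Of 12 innate-like receptors and adaptors, 3 were higher and 2 lower. Fcer1g, the signalling adaptor of Fc and NK receptors, was at 693 against 92.1 CPM in PD1d/IL-2v/IL-33 at day 12, 488 against 119 in PD1d/IL-2v and 456 against 34.4 in PD1d/IL-2v/IL-33 at day 5, and at 0 against 61.4 CPM in the 6 untransduced cells. The log2 fold change was 2.55 ± 0.25 (n = 2 libraries, edgeR adjusted p = 1.6e-21). Not all of the cells had it, since 47 of 81 and 6 of 14 held a UMI in the libraries of day 12. The receptor genes Cd244 (1.54 ± 0.32) and Klrb1c (1.12 ± 0.37) were higher, while Cd7 (-1.89 ± 0.28) and Hcst (-0.85) were lower. In NK cells of PD1d/IL-2v/IL-33 at day 12 Fcer1g was at 2426 CPM, above the granzyme C-G cells, and Ifitm2 at 550 CPM, below them.

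The inhibitory receptors Pdcd1 and Havcr2 were higher and the exhaustion factor Tox lower. Of 10 genes of the inhibitory receptor list, which also holds a costimulatory receptor (Tnfrsf9) and surface enzymes, 4 were higher and 1 lower with 2 libraries. The log2 fold changes of the former were Havcr2 (TIM-3) at 1.84 ± 0.24, Tnfrsf9 (4-1BB) at 1.49 ± 0.26, Pdcd1 (PD-1) at 1.43 ± 0.24 and Entpd1 (CD39) at 1.05 ± 0.29. Entpd1 was called in 4 of 8 settings, not with DESeq2 (adjusted p = 0.807), and was at 0.08 after thinning to 2000 UMIs. In untransduced cells Entpd1 was at 14.0 against 31.1 CPM. Pdcd1 was at 378 against 181 CPM in PD1d/IL-2v/IL-33 at day 12, 905 against 275 in PD1d/IL-2v, 456 against 206 in PD1d/IL-2v/IL-33 at day 5 and 1047 against 824 in untransduced cells. Havcr2 was at 107 against 36.7, 149 against 34.3 and 193 against 55.1 CPM in the first 3 of these libraries but at 41.9 against 86.2 in untransduced cells. Whether UMIs of the PD1d decoy were counted as Pdcd1 in the engineered libraries was not tested. Tigit was lower with 2 libraries (-0.78 ± 0.24) and not called with 4 (-0.24), whereas Lag3 (0.62) and Ctla4 (0.53) were called higher with 4 and not with 2. Of 12 exhaustion and activation factors none was higher and 3 were lower with 2 libraries, namely Tox, Nfatc1 and Nr4a2. With 4 libraries 2 were higher, the signalling regulator Rgs16 (0.98, edgeR adjusted p = 1.3e-07) and Bhlhe40 (0.50, edgeR adjusted p = 0.0312), and 3 were lower, Tox, Nfatc1 and Nr4a1 (-0.93). Rgs16 was higher in 3 of the 4, at 901 against 349 CPM in PD1d/IL-2v but 209 against 236 in PD1d/IL-2v/IL-33 at day 12. Tox, a factor that keeps the exhausted state, was at 2.48 against 36.2 CPM in PD1d/IL-2v/IL-33 at day 12 (3 UMIs in 81 cells), 32.5 against 60.4 in PD1d/IL-2v, 35.7 against 59.3 in PD1d/IL-2v/IL-33 at day 5 and 55.8 against 118 in untransduced cells. It was lower in all 4 libraries, by the most in the first (log2 fold change -2.29 ± 0.43, n = 2 libraries, edgeR adjusted p = 9.1e-06), and with DESeq2 it did not pass.

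Genes of naive and memory T cells were low, with 9 of 12 lower and none higher. Tcf7, which encodes the memory factor TCF-1, was at 9.11 against 68.4 CPM in PD1d/IL-2v/IL-33 at day 12, 18.6 against 146 in PD1d/IL-2v, 7.13 against 124 in PD1d/IL-2v/IL-33 at day 5 and 0 against 143 in untransduced cells (log2 fold change -2.84 ± 0.34, n = 2 libraries, edgeR adjusted p = 2.2e-14). The exit receptor S1pr1 (-3.20 ± 0.46), Slamf6 (-3.27 ± 0.60), Klf2 (-2.12 ± 0.28) and Ccr7 (-1.89 ± 0.27) were lower too. Of 11 effector and memory factors, Litaf was higher (0.90 ± 0.23) and Id3 (-3.60 ± 1.05) and Eomes (-1.16 ± 0.30) were lower, while Tbx21 (T-bet) did not pass (-0.27 ± 0.27). With 4 libraries Id2 (0.74) was also higher and Zeb2 (-1.09) also lower. Of 12 trafficking receptors 5 were lower and none higher. The chemokine receptor Cxcr4 was at 12.4 against 174 CPM in PD1d/IL-2v/IL-33 at day 12 and 4.64 against 67.6 in PD1d/IL-2v (-3.68 ± 0.35), and Cxcr3 (-2.48 ± 0.32) and Itga4 (-1.61 ± 0.29) were lower with it.

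The chemokines split. Ccl5, a chemokine of memory and effector CD8 T cells, was at 210 against 6662 CPM in PD1d/IL-2v/IL-33 at day 12, 1449 against 5673 in PD1d/IL-2v, 2945 against 9120 in PD1d/IL-2v/IL-33 at day 5 and 1828 against 3563 in untransduced cells. It was lower in all 4, with a log2 fold change of -3.43 ± 0.39 (n = 2 libraries, edgeR adjusted p = 5.1e-16) that DESeq2 did not call. Ccl4 was at 92.7 against 485 CPM in PD1d/IL-2v/IL-33 at day 12. In the other 3 libraries it was at 2535 against 1432, 6005 against 2888 and 5805 against 992. It was not called with 2 libraries (-0.67 ± 0.30) and was called higher with 4 (0.63, edgeR adjusted p = 0.00313), as were Ifng (0.985) and Ccl3 (0.54). Ccl3 was nonetheless below the other CD8 cells in PD1d/IL-2v/IL-33 at day 12 (72.0 against 246 CPM) and in untransduced cells (112 against 258). Ifng was also below them in PD1d/IL-2v/IL-33 at day 12 (95.2 against 140 CPM), and above them in PD1d/IL-2v (687 against 380 CPM). Spp1 was at 676 against 75.9 CPM in PD1d/IL-2v/IL-33 at day 12, 1235 against 86.6 in PD1d/IL-2v and 528 against 22.6 in PD1d/IL-2v/IL-33 at day 5, but at 27.9 against 51.2 in untransduced cells. Of the 10 chemokines and cytokines tested, Spp1 (osteopontin, 3.53 ± 0.26), Lta (1.34 ± 0.31) and Csf2 (1.21 ± 0.30) were higher and Xcl1 (-1.76 ± 0.30) lower beside Ccl5. Lta and Csf2 rested on few cells, since 1 cell held 93.5% of the Lta UMIs and all Csf2 UMIs of PD1d/IL-2v, and Lta was at -0.11 when 5 granzyme UMIs were required.

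Glycolysis genes were higher, 8 of 12, with none lower. Slc2a1, the glucose transporter GLUT1, was at 79.5 against 43.9 CPM in PD1d/IL-2v/IL-33 at day 12, 97.5 against 35.2 in PD1d/IL-2v, 78.4 against 64.3 in PD1d/IL-2v/IL-33 at day 5 and 154 against 42.2 in untransduced cells (1.15 ± 0.26). The enzymes Tpi1 (1.26 ± 0.24), Eno1 (1.10 ± 0.25), Aldoa, Pkm, Gapdh, Pgk1 and Ldha were the others. Of these 8, DESeq2 called only Tpi1, Eno1, Aldoa and Pkm, and after thinning to 2000 UMIs only Tpi1 and Eno1 were called. With cells of like UMI range Ldha was not called (edgeR adjusted p = 0.0692). The median log2 fold change of the list was 0.995, against -0.03 over all genes tested and -1.65 for the naive and memory list. Of 14 genes of IL-2 and IL-33 receptors and signalling, Il2ra, the IL-2Rα chain that IL-2v does not engage, was higher (1.20 ± 0.24), the cytokine response genes Socs3 and Pim1 (-1.23 ± 0.25) were lower, and the IL-33 receptor gene Il1rl1 did not pass (-2.24 ± 1.29, with 0 UMIs in the 81 cells of PD1d/IL-2v/IL-33 at day 12). Of 9 survival genes Bcl2l11 was lower (-0.78 ± 0.25), and of 15 cell cycle genes Ccnb2 was higher (1.89 ± 0.54). With 4 libraries Bcl2 was also called lower. Over all genes tested, 5.6% were called. Bcl2l11 was called in 4 of 8 settings and Ccnb2 in 3 of 8, and neither with DESeq2 (adjusted p = 0.912 and 0.905).

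**Figure D3:**
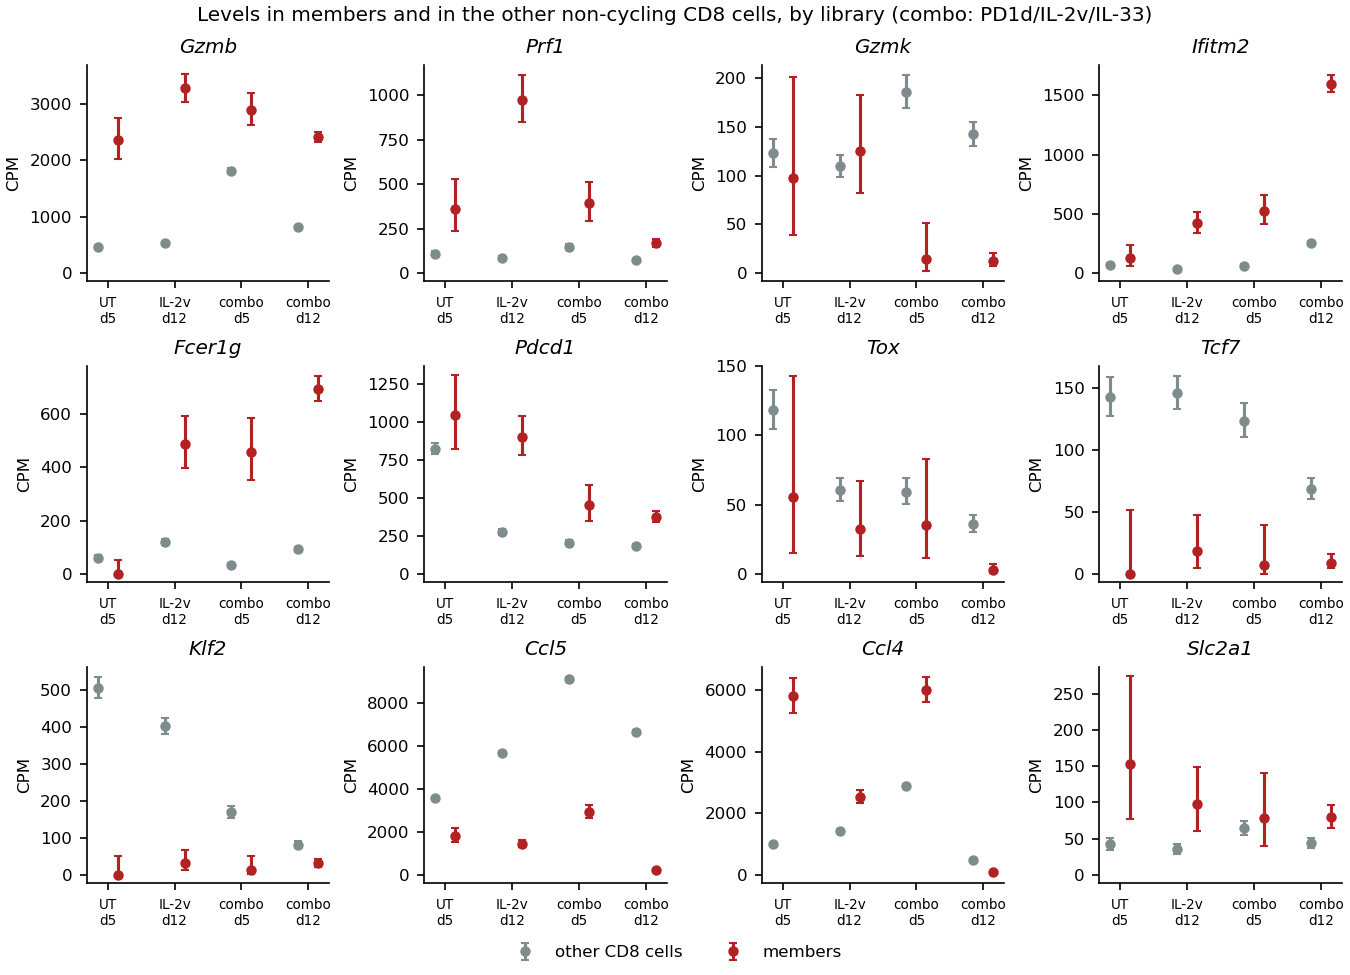
Levels of 12 genes in granzyme C-G cells and in the other CD8 cells of 4 libraries, in CPM, with exact 95% Poisson intervals for counting error. Gzmb, Prf1 and Ifitm2 lie higher and Tox, Tcf7, Klf2 and Ccl5 lower in granzyme C-G cells in each library, and Fcer1g is at 0 in the untransduced cells.

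By size of change, the 15 highest genes included metallothioneins, which bind zinc and copper. Mt1 was at 846 against 104 CPM in PD1d/IL-2v/IL-33 at day 12, 390 against 21.3 in PD1d/IL-2v, 1669 against 96.8 in PD1d/IL-2v/IL-33 at day 5 and 181 against 94.3 in untransduced cells (log2 fold change 3.57 ± 0.26), and Mt2 was 3.34 ± 0.29. Adora3, an adenosine receptor gene, had the highest fold change (5.58 ± 1.02) from 14 UMIs, at 9.93 and 9.29 CPM in the libraries of day 12 and at 0 in the day 5 members. Gpr141, Gng11, Tjp1, Gstm5 and Fcrl6 were others of the 15. Of the 15 lowest, 14 were at 0 UMIs in the 95 cells. Within PD1d/IL-2v/IL-33 at day 12, against a floor of 3 UMIs over its 81 cells (2.48 CPM), the phosphodiesterase gene Pde2a was at least 13.7-fold lower, Klra7 at least 11.5-fold and the neonatal Fc receptor gene Fcgrt at least 3.97-fold.

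The second comparison was with CD8 cells that co-express Pdcd1 and Tox, as exhausted T cells do. Of the other CD8 cells, 831 held a UMI of both genes, as did 11 of the 112. In the same 2 libraries (95 against 113 cells), 203 of 5364 genes (3.78%) passed, 101 higher (1.88%) and 102 lower (1.9%) in granzyme C-G cells. With 4 libraries 146 of 5573 (2.62%) passed, and 114 of the 203 were called the same way. DESeq2 gave 30 and the fit without the library block 2. Of 39 genes of the lists called, 29 were called with 4 libraries, 20 with cells of like UMI range, 11 with DESeq2 and 9 in all 7 settings run. Pdcd1 and Tox chose the comparison cells and were not tested.

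Of 16 cytotoxic genes 5 were higher, none was lower and 11 did not pass. Gzma, which did not pass the test against the other CD8 cells as a whole, was at 1858 against 401 CPM in PD1d/IL-2v/IL-33 at day 12, 734 against 320 in PD1d/IL-2v and 1733 against 263 in PD1d/IL-2v/IL-33 at day 5, but at 0 against 23.2 in untransduced cells (log2 fold change 1.80 ± 0.22, n = 2 libraries, edgeR adjusted p = 7.2e-07). Gzmb was higher by 2.24 ± 0.19, Prf1 by 1.49 ± 0.28 and Ctsd by 1.32 ± 0.21, and DESeq2 did not call Gzma (adjusted p = 0.0849) or Prf1. Ifitm2 had the highest log2 fold change (4.92 ± 0.27) among the genes called and higher in both libraries, with 1599 against 56.6 CPM in PD1d/IL-2v/IL-33 at day 12 and 423 against 14.5 in PD1d/IL-2v, followed by Fcer1g (4.26 ± 0.30). The receptor genes Klrb1c (3.52 ± 0.66) and Klre1 (0.94 ± 0.26) were higher, and Klrg1, a receptor of late effector cells, was higher with 2 libraries (2.61 ± 0.58) and did not pass the filter on low counts with 4. DESeq2 called none of them (adjusted p = 0.965 for Klrg1). Klrb1c was called in 4 of 7 settings, Klre1 in 2 and Klrg1 in 2, and Klrg1 was too low to be tested in several.

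Of 9 exhaustion and activation factors 5 were lower and none higher, these being Nr4a2 (-1.68 ± 0.22), Nfatc1 (-1.32 ± 0.31), Nr4a1 (-1.26 ± 0.23), Batf (-1.21 ± 0.25) and Ikzf2 (-0.93 ± 0.24). Of these 5, only Nr4a2 was also called with cells of like UMI range and with DESeq2, and the other 4 were called by neither. Of the inhibitory receptors, Tigit (-1.85 ± 0.26), Cd38 (-1.55 ± 0.42) and Ctla4 (-0.78 ± 0.22) were lower and Tnfrsf9 higher (0.76 ± 0.19), and Havcr2 (0.80 ± 0.26) and Lag3 (-0.76 ± 0.24) did not pass. With 4 libraries Tigit, Ctla4 and Klre1 were not called. Maf, a factor of exhausted and regulatory T cells, was lower (-2.67 ± 0.46), as were Areg (-2.72 ± 0.35), Ccl5 (-3.25 ± 0.36) and Cxcr4 (-2.68 ± 0.41). Spp1 (3.23 ± 0.25) and Mt1 (2.78 ± 0.24) were higher, as against the other CD8 cells. Both comparisons used the same granzyme C-G cells.

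Within PD1d/IL-2v/IL-33 at day 12, the levels of several of these genes followed the number of granzyme UMIs, which is given as a description since cells with more granzyme UMIs were also deeper. Cells with 0, 1 or 2, 3 to 9, 10 to 99 and 100 or more granzyme UMIs numbered 435, 69, 13, 40 and 28, with median depths of 6660, 7247, 13204, 11423.5 and 19462 UMIs. Ifitm2 stood at 233, 371, 965, 1684 and 1738 CPM in these classes, and so was already near its highest level at 10 to 99. Ccl5 ran the other way, at 6953, 5083, 521, 224 and 92.3 CPM, with its largest step between cells just outside and just inside the threshold. Tcf7 was at 71.9, 49.5, 32.5, 8.30 and 1.85 CPM. Fcer1g, in contrast, was at 81.7, 149 and 103 CPM in the first 3 classes and at 696 and 891 CPM in the last, and Gzma was at 1209, 615 and 222 CPM in the first 3 and at 1437 and 2788 CPM in the last. The 13 cells with 3 to 9 granzyme UMIs thus lay between the cells outside the threshold and the granzyme-rich cells in Ifitm2 and Ccl5, within the range of the cells outside in Fcer1g, and below both in Gzma.

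**Figure D4:**
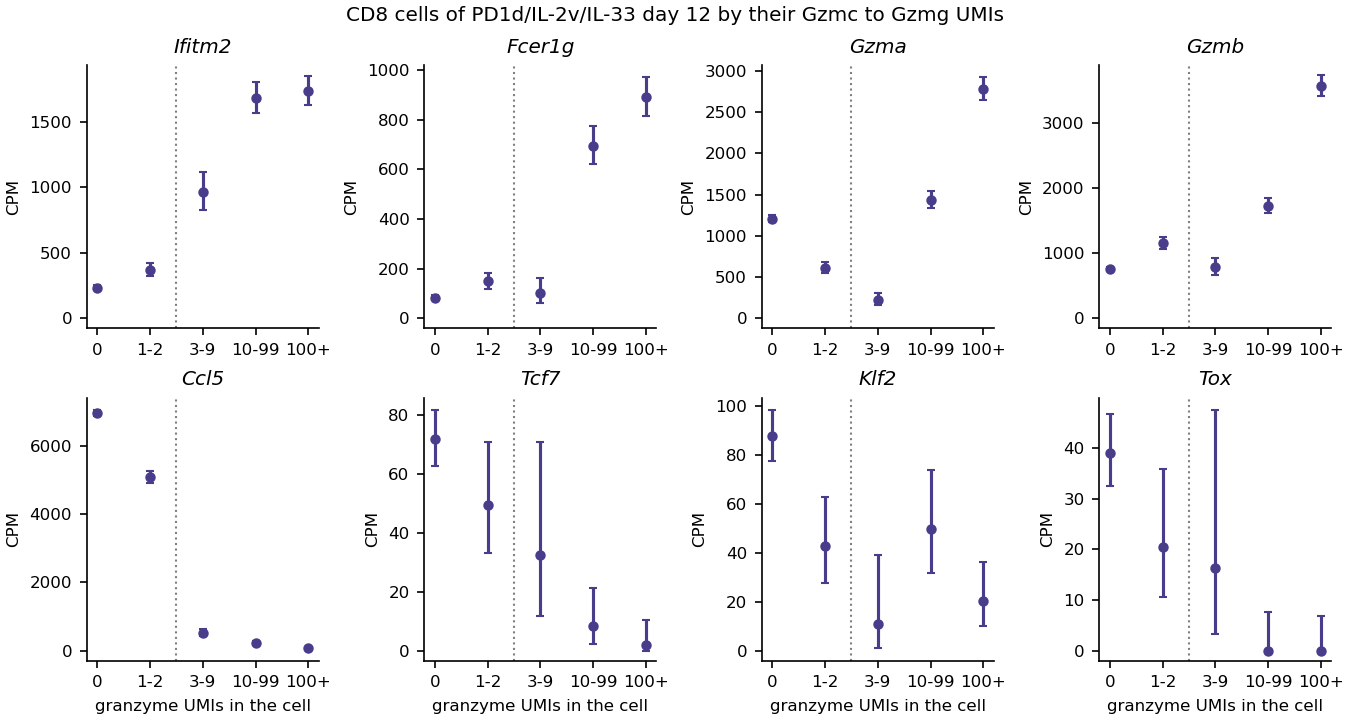
Levels of 8 genes in CPM, with exact 95% Poisson intervals, in cells of PD1d/IL-2v/IL-33 at day 12 by their number of granzyme C-G UMIs (435, 69, 13, 40 and 28 cells). Ifitm2 climbs and Ccl5 and Tcf7 decline across the classes, while Fcer1g is at 696 and 891 CPM in the 2 classes from 10 UMIs up and at most at 149 CPM below.

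The granzyme C-G cells of PD1d/IL-2v/IL-33 (81 cells) and PD1d/IL-2v (14 cells) at day 12 were set side by side by the log2 ratio of their CPM after adding 10 CPM, with no test. Of 2793 genes with at least 50 UMIs in the pair, 303 (10.8%) differed by a log2 ratio of 1 or more, 115 higher (4.12%) and 188 lower (6.73%) in PD1d/IL-2v/IL-33. The median over all genes was -0.23, and after scaling by trimmed means (TMM) the split was 178 higher and 85 lower, so the directions of small ratios depend on the scaling. The median share of ribosomal protein genes per cell was 37.9% in the granzyme C-G cells of PD1d/IL-2v/IL-33 and 27.3% in those of PD1d/IL-2v, against 34.4 and 34.2% in the other CD8 cells, and its part in the ratios was not tested.

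Most chemokines and inhibitory receptors with enough UMIs had ratios of -1 or less. Of 9 chemokines and cytokines with enough UMIs, 7 were lower and none higher, with a median log2 ratio of -2.73. Ccl4 was at 92.7 CPM (95% Poisson interval 76.3 to 112) against 2535 (2327 to 2757), and Ccl3 at 72.0 (57.7 to 88.8) against 1969 (1786 to 2165). In PD1d/IL-2v/IL-33, 5 of 81 cells held Ccl3, and 1 of them gave 93.1% of its UMIs. These ratios leaned on single cells, for the highest of the 14 cells for each gene gave 51.7% of the Ccl4 and 61.3% of the Ccl3 UMIs of PD1d/IL-2v, 93.5% of the Lta, 90.4% of the Ccl1, 70.3% of the Ifng and 70.7% of the Xcl1 UMIs, and 86.5% of those of Penk, the gene of the opioid precursor proenkephalin, which was at 0 UMIs in the 81 cells. Ccl1 was at -2.58, and at 0.24 when 5 granzyme UMIs were required. Ccl5, at 210 against 1449 CPM (log2 ratio -2.73), was more evenly spread, with a UMI in 42 of 81 and 12 of 14 cells, whereas in the other CD8 cells of the same libraries its ratio was 0.23. Of 8 inhibitory receptors 5 were lower, Tigit (-1.83), Lag3 (-1.66), Cd160 (-1.38), Pdcd1 (-1.24) and Ctla4 (-1.17), against -0.59, -0.52, -2.02, -0.58 and -0.53 in the other CD8 cells. Prf1 was lower too, at 169 against 975 CPM (-2.46), and in the other cells the ratio was -0.22.

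Of 7 genes of the Ifitm family, Plac8 and the Ly6 family, Ifitm2, Ifitm3 and Ly6c2 were higher in PD1d/IL-2v/IL-33 by a log2 ratio of 1 or more and none was lower, while Ly6a was at 0.09 and Ly6e at -0.20. Ifitm3 was at 524 CPM (484 to 566) against 97.5 (60.4 to 149), a log2 ratio of 2.31, and Ifitm2 at 1599 (1528 to 1672) against 423 (340 to 519), a ratio of 1.90. In the other CD8 cells the ratios were 1.53 and 2.67, so the libraries differed in these genes outside the granzyme C-G cells as well. Ly6c2 (1.18 against 0.52 in the other cells) and Gzma (1.33 against 0.32) were also higher, as were the survival gene Bcl2 (1.34 against -0.20) and the chromatin organiser gene Satb1 (1.32 against 0.59). Both of the latter were nonetheless below the other CD8 cells in each library. In PD1d/IL-2v/IL-33 and PD1d/IL-2v, Bcl2 was at 250 against 282 and 92.9 against 324 CPM. Satb1 was at 119 against 260 and 41.8 against 170 CPM. Among the 5 granzymes Gzmf (1.73) and Gzmg (4.40) were higher, Gzmc (-0.16) and Gzmd (-0.21) lay close to the median, and Gzme (-0.87) was at 675 against 1244 CPM. In PD1d/IL-2v the highest cell for each gene gave 65.2% of the Gzmf, 60.6% of the Gzmd and 66.8% of the Gzme UMIs and 75% of the 4 Gzmg UMIs, and in PD1d/IL-2v/IL-33 it gave 33.0% of those of Gzmf, 43.6% of Gzmd and 43.4% of Gzme. Without the cell richest in granzyme UMIs of each library the ratios were 2.42 for Gzmf, 3.88 for Gzmg, -0.18 for Gzmc, 0.069 for Gzmd, -0.35 for Gzme and 2.06 for Gzma. Zfp605, with 60 UMIs in 16 cells, and Emilin2, with 56 UMIs in 31 cells, were at 0 in the 14 cells of PD1d/IL-2v.

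**Figure D5:**
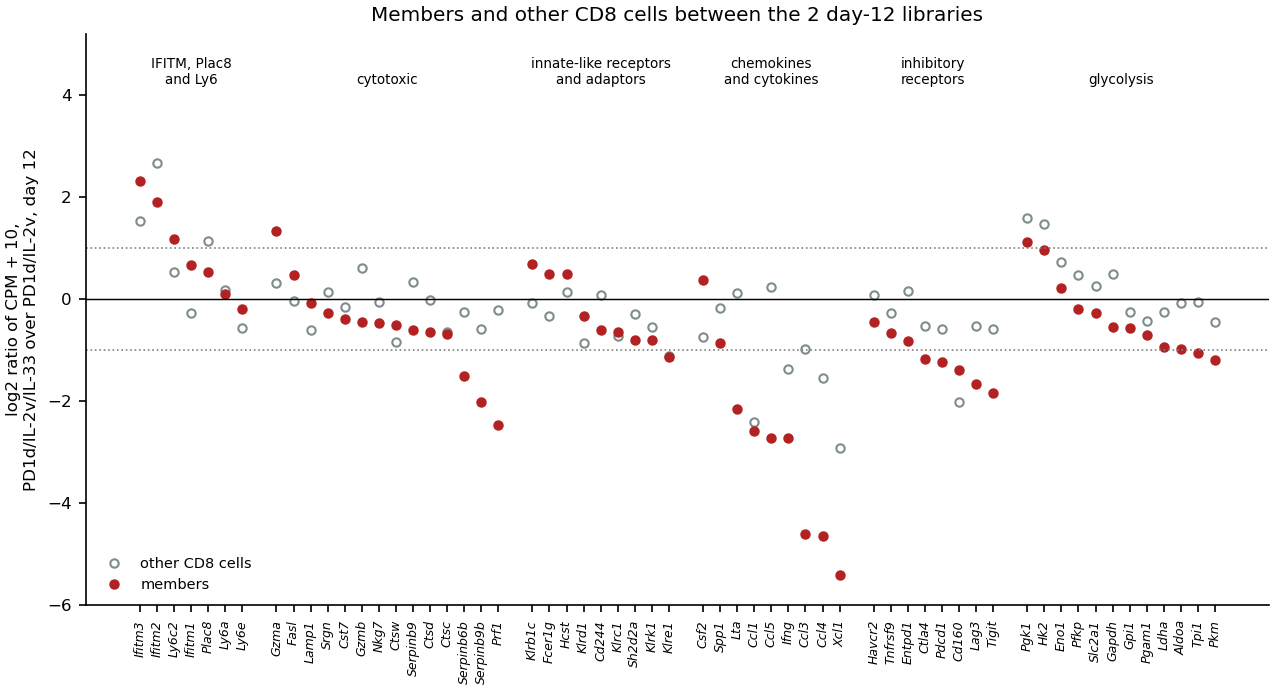
Log2 ratio of CPM (after adding 10 CPM) between PD1d/IL-2v/IL-33 and PD1d/IL-2v at day 12 for genes of 6 lists, in granzyme C-G cells (filled red) and in the other CD8 cells (open grey). Ccl4 and Ccl3 lie near -4.6 in granzyme C-G cells, while Ifitm2 lies above 0 in both.

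The granzymes were not limited to non-cycling CD8 cells. Among gate cells with Mki67, 24 of 112 in PD1d/IL-2v/IL-33 at day 12 held 3 or more granzyme UMIs (21.4%, 14.2 to 30.2%), against 3 of 60 in PD1d/IL-2v (5.00%) and 6 of 124 in PD1d/IL-2v/IL-33 at day 5 (4.84%). In these 24 cells Ifitm2 was at 1772 CPM, Fcer1g at 527, Gzmb at 1571, Ccl5 at 109 and Tcf7 at 4.72, against 1599, 693, 2406, 210 and 9.11 CPM in the non-cycling granzyme C-G cells, and Spp1 was at 104 against 676 CPM. No test was possible within 1 library. Among NK cells (Ncr1, without Cd3 and Mki67) of PD1d/IL-2v/IL-33 at day 12, 65 of 188 held 3 or more granzyme UMIs (34.6%, 27.8 to 41.8%), against 44 of 411 in PD1d/IL-2v (10.7%) and 32 of 485 in PD1d/IL-2v/IL-33 at day 5 (6.60%).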

How the data were processed

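CD45+ TILs of 8 libraries were analysed, each a condition and day of its own. The authors deposited raw UMI counts (not normalized, 27998 genes by 15700 barcodes, 98669511 UMIs in all) made with Cell Ranger, given as version 2.2.0 with genome build GRCm38 in the submitters' processing notes. The study's methods name another Cell Ranger version, and which one made the file was not resolved. Each library holds a round number of barcodes, from 400 to 3700.

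The members and gene lists were chosen with earlier results of these data known. Cells were chosen by the rule in the text. UMIs were summed per library over granzyme C-G cells and over comparison cells and tested with edgeR 4.0.16 (R 4.3.3) by glmQLFit and glmQLFTest with TMM factors, filterByExpr and the library as a block, at a Benjamini-Hochberg adjusted p of 0.05. Genes of the rule, mitochondrial genes and ribosomal protein genes stayed in the fit and were not tested. Libraries stand for replicates although their conditions differ and each pools several mice. The p-values and ± values rest on a variance moderated over genes, so they are not the spread of a single gene between libraries. With 2 libraries 1 residual degree of freedom remained. The fit on 4 libraries was added after seeing the data. Named genes were those of the lists, the 15 highest and 15 lowest changes called with the same direction in each library, and the 5 highest and 5 lowest ratios between libraries. Single libraries were compared as CPM with exact 95% Poisson intervals and shares with exact binomial ones, which cover counting error only. DESeq2 1.42.0, thinning to 2000 UMIs, other gates and thresholds and leaving out libraries were alternatives. The script was tested on simulated data. Doublet scores came from Scrublet in Scanpy 1.11.5. Promoter sequences are from RefSeq on GRCm38.p6, and protein sequences were not used here. The values of some single genes are not reported here, and they stay in the counts of calls.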

Additional observations from a re-analysis of the deposited data

Results flagged for a closer look

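Some genes stood on opposite sides of the other CD8 cells in different libraries. The values are log2 ratios of granzyme C-G cells to other CD8 cells after adding 10 CPM, each from 1 library, and the differences between libraries were not tested. Fcer1g was at 3.39 in PD1d/IL-2v/IL-33 at day 5 and -2.84 in untransduced cells at day 5. In the latter the 6 cells held no UMI and the added 10 CPM sets the value. Eomes was at 1.35 in untransduced cells, from 6 UMIs, and -2.13 in PD1d/IL-2v/IL-33, from 1 UMI, both at day 5. Among chemokines and cytokines, Ccl3 was at 1.98 in PD1d/IL-2v and -1.64 in PD1d/IL-2v/IL-33 at day 12, where 93.1% of its UMIs came from 1 cell. Ccl4 was at 2.54 in untransduced cells at day 5 and -2.27 in PD1d/IL-2v/IL-33 at day 12. At day 5 Ccl1 was at 1.29 in PD1d/IL-2v/IL-33 and -1.67 in untransduced cells, the latter from 2 UMIs. Xcl1 was at 1.17 in untransduced cells at day 5 and -3.05 in PD1d/IL-2v/IL-33 at day 12. Csf2 was at 1.23 in PD1d/IL-2v/IL-33 at day 12, where 66.7% of its UMIs came from 1 of 81 cells. It was at -2.09 at day 5, where the 9 cells held no UMI and the added 10 CPM sets the value.

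Granzyme C-G UMIs also appeared in cells outside the definition, at 3 or more in 21.4% of cycling CD8 gate cells and 34.6% of NK cells of PD1d/IL-2v/IL-33 at day 12. In non-treated mice none of 9 cycling gate cells and 4.62% of 65 NK cells held as many.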

How the results depend on the processing

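Few libraries held enough members, and depth limits low genes. Requiring 1 granzyme UMI gave shares of 6.62% in untransduced cells at day 5, 6.82% in PD1d/IL-2v, and 4.12, 21.5 and 0.651% in PD1d/IL-2v/IL-33 at days 5, 12 and 26, and requiring 5 gave 0% in PD1d/IL-33. Without the condition on Mki67, PD1d/IL-2v/IL-33 at day 12 had 15.1%, and with the cell filter of the study's later experiment (500 to 12000 UMIs) it had 8.65% and its day 5 library 0.327%. In each of these settings that library of day 12 had the highest share of those listed.

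Against the other CD8 cells, 494 genes became 75 with DESeq2, 1 without the library block, 60 with cells thinned to 2000 UMIs and 315 with comparison cells of the members' UMI range. For the fit on 4 libraries the counts were 229, 95, 97 and 178, and 353 to 554 when 1 library was left out (353 without PD1d/IL-2v/IL-33 at day 12 and 410 without PD1d/IL-2v). None of the 494 was called in the other direction under these settings but 1, without PD1d/IL-2v. Against the Pdcd1 Tox co-positive cells, 203 genes became 30, 2, 48 and 80, and 128 without the highest doublet scores. With 4 libraries DESeq2 gave 76 and the fit without the block 16, and leaving out PD1d/IL-2v/IL-33 at day 12, PD1d/IL-2v, PD1d/IL-2v/IL-33 at day 5 or untransduced cells gave 72, 88, 113 and 148. No paired analysis beyond the library block was possible because each condition and day has a single library. Leaving out a library from the fit on 2, or requiring 20 cells, left 1 library and no test.

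Among genes called in at least 1 of the fits compared, reversed signs against the other CD8 cells were found for Ccl4 (0.63 with 4 libraries, 0.58 without the filter on low counts, 1.44 without PD1d/IL-2v/IL-33 at day 12, 0.60 without PD1d/IL-2v), Gzma (-0.68, stricter gate, 4 libraries), Lta (-0.11, minimum of 5) and, without PD1d/IL-2v/IL-33 at day 12, Csf2 (-0.59), Nr4a2 (0.052) and Tigit (0.26). Against co-positive cells they were found for Ccl4 on 4 libraries (0.35, 0.37 with DESeq2, 0.30 without the filter on low counts, 0.95 without the block, 1.42 and 0.71 without each library of day 12), Ctla4 (0.17) without PD1d/IL-2v/IL-33 at day 12, and Ifng (1.14) without PD1d/IL-2v. Between libraries Ccl1 was 0.24 with a minimum of 5. The causes were not tested. There, 115 higher and 188 lower genes became 178 and 85 with TMM, 22 and 43 with thinned cells, and 383 and 473 from 10 UMIs.

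As means over cells, PD1d/IL-2v had 73.9% Gzmc, 6.65% Gzmd, 4.44% Gzme and 14.9% Gzmf, and PD1d/IL-2v/IL-33 53.1, 6.35, 3.50, 35.2 and 1.87% from Gzmc to Gzmg. Of the summed UMIs, PD1d/IL-2v/IL-33 without the richest cell had 39.6% Gzmc, 9.50% Gzmd, 4.70% Gzme and 40.6% Gzmf.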

Other observations

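The single granzyme C-G cell of PD1d/IL-2v/IL-33 at day 26 held 46 UMIs of Gzmc, 13 of Gzmf and 44 of Gzmb, and 41 of Ccr7, a homing receptor of naive T cells and migratory dendritic cells. The single cell of PD1d/IL-33 held 3 UMIs of Gzmf and none of the other granzymes of the definition. Both passed the CD8 gate.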
